A study of Mus musculus with 8 samples.

Results

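Glycolysis and the response to low oxygen were followed through 35 genes, chosen by name for their roles: glucose uptake, the steps from glucose to pyruvate, the handling of lactate and pyruvate, the sensing of oxygen by the hypoxia-inducible factor (HIF), and known HIF target genes. The rule uses no measured value, but the genes were chosen with earlier results of these data known. The 35 genes stood among 54532 with deposited counts, and all 35 passed the filter on low counts that left 14591 genes for testing. They were measured by RNA-Seq of polyadenylated RNA in bone marrow-derived macrophages (BMDMs), grown for 7 days from the leg marrow of C57BL/6J mice aged 6 to 8 weeks in medium with L929 cell supernatant, which supplies the growth factor that turns marrow cells into macrophages. The 4 groups held 2 libraries each. WT and Trex1-KO (Trex1-/-) BMDMs received DMSO, the vehicle, and 2 further groups of Trex1-KO BMDMs received H151 or SN-011, small molecules that block STING, all for 12 h. The dose of H151 was 500 nM. That of SN-011 is missing from the labels, while the methods of the study state equal concentrations. Trex1 encodes the exonuclease that clears cytosolic DNA, so its loss leaves DNA that cGAS senses and signals through STING, and every antagonist-treated library carried that loss. No group of WT cells received an antagonist. The records of the SN-011 libraries word the treatment differently from the other 6, and whether all were prepared together is not stated. According to the methods, WT mice were bought and Trex1-/- mice were bred from heterozygous parents, so the source of the mice and the genotype cannot be told apart. The study describes the pairs of libraries as independent experiments, and whether they came from separate mice is not stated. All p-values measure the spread between these libraries.

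Glycolysis splits glucose into pyruvate in the cytosol and yields ATP without oxygen. Lactate dehydrogenase then turns pyruvate into lactate, which leaves the cell through monocarboxylate transporters. HIF consists of an alpha subunit, encoded by Hif1a, and a stable partner. When oxygen is present, prolyl hydroxylases (Egln1, Egln3) mark the alpha subunit for destruction, so that HIF activity is set largely at the level of the protein, which RNA counts do not show. HIF binds a short DNA element with the core ACGTG or GCGTG and raises genes of glucose uptake, glycolysis, lactate export, mitophagy and vessel growth. Macrophages activated by bacterial products are known for a switch to glycolysis with stabilised HIF.

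The libraries held between 11845470 and 17284863 counts, and levels are given as CPM, counts divided by the library total and by a trimmed mean of M-values (TMM) factor of 0.973 to 1.04, with a single count equal to 0.0582 to 0.0849 CPM. The 35 genes took between 0.436% and 0.474% of the counts of a library. Trex1 had 0 counts in all 8 libraries, WT included, so the knockout could not be checked by its own reads. Atrip, whose exons overlap Trex1, was counted 192 and 257 times in WT and between 639 and 1067 times in the other 6 libraries. The summed level of 8 macrophage markers was 30300 and 32360 CPM in WT and between 30090 and 32030 CPM in the Trex1-KO groups, while the sums of erythroid (1.06 to 2.04 CPM), dendritic cell (3.92 to 5.69 CPM), B cell (2.97 to 10.0 CPM) and T cell markers (18.2 to 33.9 CPM, all but a few counts from Cd4) were low, with Cd209a and Ccr7 at 0 and Cd3e at no more than 1 count. The macrophage sum is mostly Lyz2, and 3 of its 8 genes were higher in Trex1-KO than in WT: Fcgr1 (log2 fold change 1.14 ± 0.08), Cd68 (0.44 ± 0.06) and Adgre1 (0.19 ± 0.05). Genes of dividing cells summed to 182.5 and 196.5 CPM in WT and to 203 to 238.5 CPM in the other groups, with 1 of 6, Pcna, higher in Trex1-KO (0.21 ± 0.07). Between Trex1-KO and WT, 16.4% of all genes tested had an adjusted p under 0.05 (9.27% higher and 7.11% lower), beside which these marker counts stand. Over WT, 2 of the 6 dividing-cell genes were higher with H151 and 3 with SN-011, against 6.79% and 6.18% of all genes. Ebf1 and Cd4, the only B and T cell markers tested, were lower in Trex1-KO than in WT, and markers of 2 further kinds also differed with the genotype. The sum of 8 neutrophil and granule genes was 8.68 and 9.64 CPM in WT against 64.5 to 98.6 CPM in the Trex1-KO groups, with all 5 tested members higher in Trex1-KO, and that of 8 stromal genes was 3791 and 4245 CPM in WT against 1586 to 2259 CPM, with 6 of 7 tested members lower. In the first of these lists, Ly6g, Mpo and Elane had at most 11 counts in any library. Their part in the differences from WT given below was not tested, and in bulk RNA a change in the number of cells of a type and in RNA per cell cannot be told apart.

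BMDMs carried RNA for each step of the pathway. On a per-length scale (FPKM, TMM-scaled CPM per kilobase of merged exons, mean of 8 libraries), the aldolase Aldoa stood highest of the 35 at 215, followed by the pyruvate kinase Pkm at 135, the phosphoglycerate kinase Pgk1 at 98.0 and the lactate dehydrogenase Ldha at 96.6. The neighbours Pgk1 and Ldha did not differ beyond their spread over libraries. Vegfa, the vascular growth factor, ranked 8 of 35 at 58.8 FPKM, above Hif1a at 25.9 FPKM. The neuronal enolase Eno2 at 0.921 FPKM and the prolyl hydroxylase Egln3 at 0.720 FPKM stood lowest. Such an order is limited by gene copies, because reads that fit more than 1 place were left out of the counts. Gapdh, the dehydrogenase in the middle of the pathway, is near-identical (at least 95% over at least 500 bases) to transcripts of 73 other genes and read only 79.3 to 112 CPM. Bnip3 shares such stretches with 4 genes, Eno1 with 3, Pgk1 and Ldha with 2 each, and Gpi1, Pgam1, Pkm, Ldhb and Bnip3l with 1 each. The copy of Ldhb, Gm5514, is 98.0% identical over 1002 bases.

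**Figure D1:**
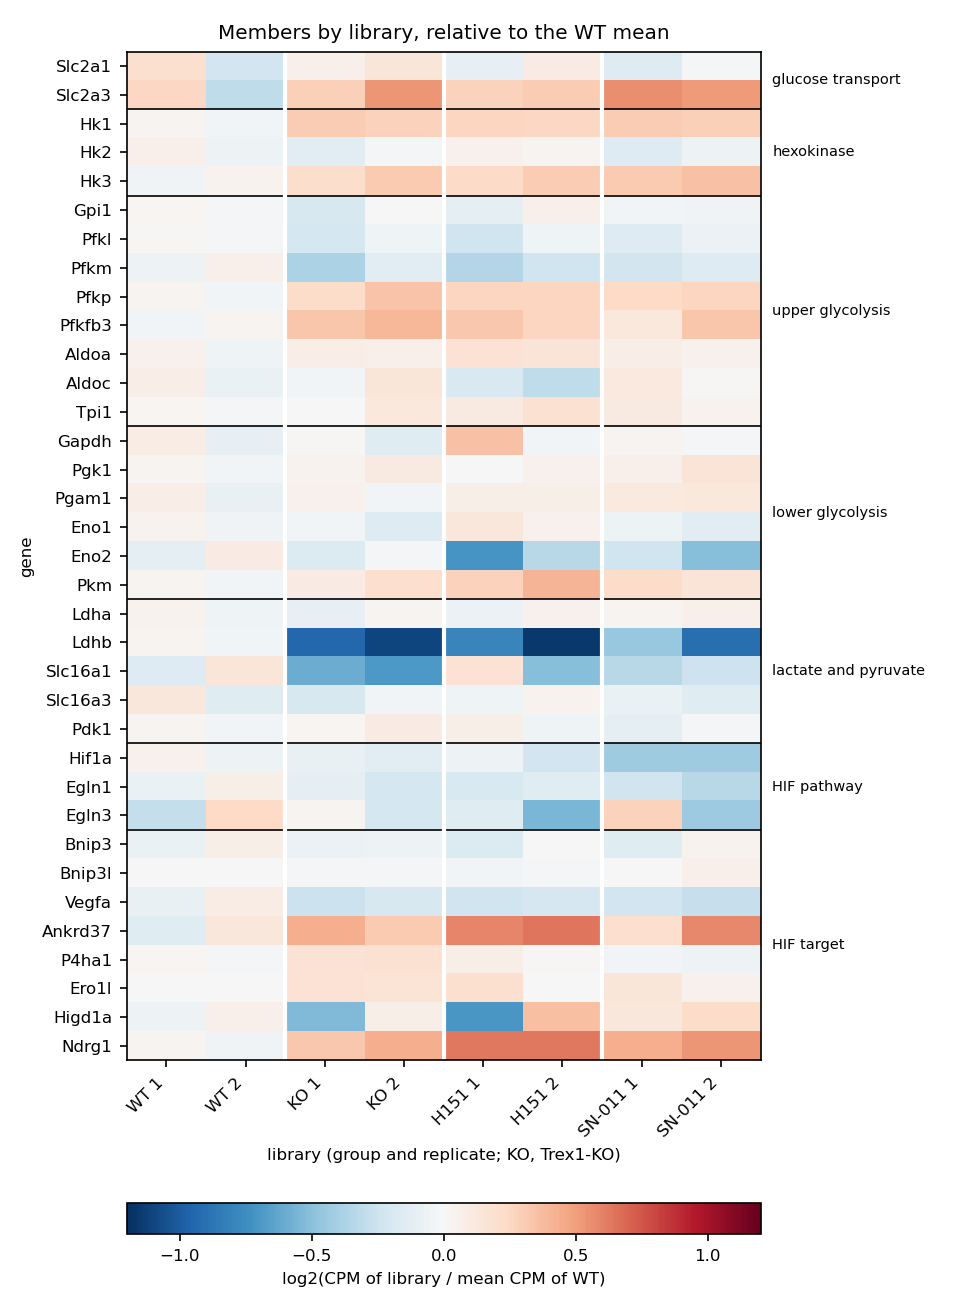
Log2 ratio of each library's CPM to the mean CPM of the WT libraries (colour scale) for the 35 genes (rows, grouped by role) in the 8 libraries (columns; KO, Trex1-KO; H151 and SN-011, treated Trex1-KO). Most rows stay pale, Ldhb is blue in all 6 Trex1-KO libraries (7.79 to 12.7 CPM against 17.0 and 17.7 CPM in WT), and Ndrg1 is red in the same 6.

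Between vehicle-treated Trex1-KO and WT cells, 7 of the 35 genes passed the test, 5 upward and 2 downward. With scaling by total counts alone the split was 3 upward and 3 downward. The glucose-phosphorylating hexokinases Hk1 and Hk3, the platelet-type phosphofructokinase Pfkp, its activator Pfkfb3 and the HIF target Ndrg1 rose by 0.27 to 0.38 on the log2 scale. Ldhb, the heart-type subunit of lactate dehydrogenase, fell by 1.02 on the log2 scale, and Vegfa fell by 0.23. The 7 made up 20.0% of the 35, against 16.4% of all 14591 genes tested (9.27% higher and 7.11% lower). The median log2 fold change of the 35 was -0.01, and their median absolute log2 fold change was 0.11 against 0.18 over all genes tested. The libraries of the 2 groups did not overlap for 20 of the 35, against 56.1% of all genes. Of the 28 genes that missed the threshold, 23 had a 95% interval that stayed within 1.5-fold in both directions. The other 5, Slc2a3, Slc16a1, Egln3, Ankrd37 and Higd1a, had wider intervals, so a difference of that size remains possible for them. Tests were two-sided edgeR quasi-likelihood tests, with p-values adjusted over all genes by the Benjamini-Hochberg method, and a gene with an adjusted p under 0.05 is said to be called.

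Glucose uptake and its first step differed by gene. The transporter Slc2a1 (GLUT1) read 27.6 and 20.6 CPM in WT cells, 25.1 and 26.7 CPM after loss of Trex1, 22.6 and 25.8 CPM with H151, and 21.7 and 23.9 CPM with SN-011. The groups overlapped, and the log2 fold change of Trex1-KO over WT was 0.11 ± 0.13 (SE, adjusted p = 0.66). Slc2a3 (GLUT3) had a log2 fold change of 0.42 ± 0.17 (adjusted p = 0.123) from a low level of 8.74 to 15.9 CPM, and, between Trex1-KO and WT, passed only without WT replicate 1 (log2 fold change 0.71, adjusted p = 0.0241). Hk1 (ENSMUSG00000037012, chr10:62268855-62379908, minus strand, GRCm38) read 76.0 and 72.6 CPM in WT cells, 91.8 and 89.7 CPM in Trex1-KO, 88.9 and 88.5 CPM with H151, and 91.5 and 90.6 CPM with SN-011. All 6 Trex1-KO libraries lay above both WT libraries, and the log2 fold change of Trex1-KO over WT was 0.29 ± 0.06 (adjusted p = 0.00532). Hk3 (ENSMUSG00000025877, chr13:55005985-55021385, minus strand) read 154.7 and 163 CPM in WT cells, 184 and 198 CPM in Trex1-KO, 186 and 196 CPM with H151, and 198 and 202 CPM with SN-011. The same 6 libraries lay above WT, with a log2 fold change of 0.27 ± 0.06 (adjusted p = 0.00923). Hk2, the hexokinase that HIF is known to raise, read 101 and 92.5 CPM in WT cells, 88.7 and 94.8 CPM in Trex1-KO, 100.1 and 98.6 CPM with H151, and 86.8 and 92.9 CPM with SN-011. WT and Trex1-KO overlapped, with a log2 fold change of -0.07 ± 0.07 (adjusted p = 0.556). The call of Hk1 was lost without WT replicate 2 (adjusted p = 0.083) or Trex1-KO replicate 1 (0.056). That of Hk3 was lost without WT replicate 1 (adjusted p = 0.129) or Trex1-KO replicate 2 (0.0908), and with scaling by total counts alone (0.0626).

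In upper glycolysis, 2 of 8 genes rose and none fell, a share of 25% where 16.4% of all genes were called, 9.27% higher. Both genes belong to the phosphofructokinase step, which commits glucose to the pathway. Pfkfb3 (ENSMUSG00000026773, chr2:11471433-11554077, minus strand) makes the sugar phosphate that activates phosphofructokinase. It read 46.4 and 48.6 CPM in WT cells, 60.0 and 62.6 CPM in Trex1-KO, 59.4 and 56.9 CPM with H151, and 51.9 and 59.8 CPM with SN-011. Every Trex1-KO library exceeded both WT libraries, and the log2 fold change of Trex1-KO over WT was 0.37 ± 0.08 (adjusted p = 0.00688). Pfkp (ENSMUSG00000021196, chr13:6579768-6648777, minus strand) read 47.1 and 44.9 CPM in WT cells, 53.7 and 58.4 CPM in Trex1-KO, 54.9 and 55.1 CPM with H151, and 54.4 and 55.1 CPM with SN-011. The ranges were again apart, with a log2 fold change of 0.29 ± 0.08 (adjusted p = 0.0186). The other phosphofructokinases had values in the opposite direction that did not pass, with log2 fold changes of -0.13 ± 0.08 for the liver type Pfkl (adjusted p = 0.337) and -0.25 ± 0.11 for the muscle type Pfkm (0.183). The isomerase Gpi1, the aldolases Aldoa and Aldoc and the isomerase Tpi1 had log2 fold changes between -0.09 and 0.07, and none was called. Pfkfb3 missed the threshold without WT replicate 1 (adjusted p = 0.0903). Pfkp missed it without WT replicate 1 (adjusted p = 0.0767), WT replicate 2 (0.173) or Trex1-KO replicate 2 (0.154), with total counts alone (0.0881) and in DESeq2 (0.0718).

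None of the 6 genes of lower glycolysis was called between Trex1-KO and WT, where 16.4% of all genes were, so that a count of 0 is close to that share, and their log2 fold changes ran from -0.09 to 0.15. Pgk1, which makes the first ATP of the pathway, read 217 and 208 CPM in WT cells, 218 and 229 CPM in Trex1-KO, 212 and 219 CPM with H151, and 221 and 235 CPM with SN-011. The 8 values lay close together, and the log2 fold change of 0.08 ± 0.06 did not pass (adjusted p = 0.474). Pkm, which makes pyruvate, had the largest value of the step at 0.15 ± 0.06 (adjusted p = 0.123), while Gapdh, Pgam1, Eno1 and Eno2 had adjusted p-values of 0.386 and above.

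The clearest difference lay in lactate dehydrogenase, whose A and B subunits are encoded by Ldha and Ldhb. Ldhb (ENSMUSG00000030246, chr6:142490249-142507957, minus strand) read 17.7 and 17.0 CPM in WT cells, 9.06 and 8.11 CPM in Trex1-KO, 10.0 and 7.79 CPM with H151, and 12.7 and 9.26 CPM with SN-011. All 6 Trex1-KO libraries lay below both WT libraries. The log2 fold change of Trex1-KO over WT was -1.02 ± 0.17 (adjusted p = 0.000925), a level 0.493 times that of WT (95% interval 0.381 to 0.639), and the call held under all 16 alternatives tried. Ldha read 330 and 309 CPM in WT cells, 298 and 326 CPM in Trex1-KO, 305 and 331 CPM with H151, and 326 and 333 CPM with SN-011. Its groups overlapped, with a log2 fold change of -0.03 ± 0.07 (adjusted p = 0.808). Of the lactate transporters, Slc16a1 (MCT1) had a log2 fold change of -0.65 ± 0.22 that missed the threshold (adjusted p = 0.0591) and passed it under 7 of 16 alternatives, without either H151 library (0.0141 without replicate 1 and 0.0138 without replicate 2) among them. Slc16a3 (MCT4) had -0.11 ± 0.10 (adjusted p = 0.559), and Pdk1, a kinase that holds pyruvate back from oxidation in mitochondria, 0.06 ± 0.08 (0.697).

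None of the 3 oxygen-sensing genes was called between Trex1-KO and WT, a count that lies close to the 16.4% of all genes. Hif1a (ENSMUSG00000021109, chr12:73901375-73947530, plus strand) read 178 and 164 CPM in WT cells, 160.5 and 155 CPM in Trex1-KO, 164 and 145.5 CPM with H151, and 127 and 128 CPM with SN-011. Trex1-KO lay just below WT, with a log2 fold change of -0.11 ± 0.07 (adjusted p = 0.324), and the SN-011 libraries were the lowest of the 8. Egln3, itself a HIF target, read 1.69 and 2.44 CPM in WT cells, 2.11 and 1.78 CPM in Trex1-KO, 1.87 and 1.41 CPM with H151, and 2.50 and 1.53 CPM with SN-011. At this depth its log2 fold change of -0.10 had a 95% interval from -0.85 to 0.66 (adjusted p = 0.902). Egln1 had a log2 fold change of -0.16 ± 0.09 (adjusted p = 0.272).

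Of the 8 HIF targets outside glycolysis, 1 rose and 1 fell, which is 25% where 16.4% of all genes were called (9.27% higher and 7.11% lower). Ndrg1 (ENSMUSG00000005125, chr15:66929318-66969640, minus strand), a stress-responsive gene, read 43.3 and 41.1 CPM in WT cells, 52.8 and 57.0 CPM in Trex1-KO, 65.5 and 65.3 CPM with H151, and 57.0 and 60.7 CPM with SN-011. Every Trex1-KO library stood above WT and the H151 pair stood highest, with a log2 fold change of Trex1-KO over WT of 0.38 ± 0.08 (adjusted p = 0.0034). Vegfa (ENSMUSG00000023951, chr17:46016993-46032369, minus strand) read 266 and 301 CPM in WT cells, 237 and 248 CPM in Trex1-KO, 240.5 and 247 CPM with H151, and 241 and 234 CPM with SN-011. All 6 values lay below WT, with a log2 fold change of -0.23 ± 0.07 (adjusted p = 0.0316). Bnip3, a mitophagy receptor, read 31.7 and 35.2 CPM in WT cells, 31.8 and 32.1 CPM in Trex1-KO, 29.9 and 33.4 CPM with H151, and 30.2 and 34.4 CPM with SN-011. The groups overlapped, with a log2 fold change of -0.06 ± 0.10 (adjusted p = 0.747), and its relative Bnip3l had -0.01 ± 0.06. The collagen hydroxylase subunit P4ha1 had a log2 fold change of 0.18 ± 0.06 (adjusted p = 0.0619) and the endoplasmic reticulum oxidase Ero1l 0.17 ± 0.09 (0.256), while Ankrd37 and Higd1a, at 2.06 to 14.9 CPM, had adjusted p-values of 0.425 and 0.708. Ndrg1 missed the threshold without WT replicate 2 (adjusted p = 0.0567). Vegfa missed it without WT replicate 2 (log2 fold change -0.15, adjusted p = 0.279), Trex1-KO replicate 1 (0.158), Trex1-KO replicate 2 (0.0551) or SN-011 replicate 1 (0.0609).

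**Figure D2:**
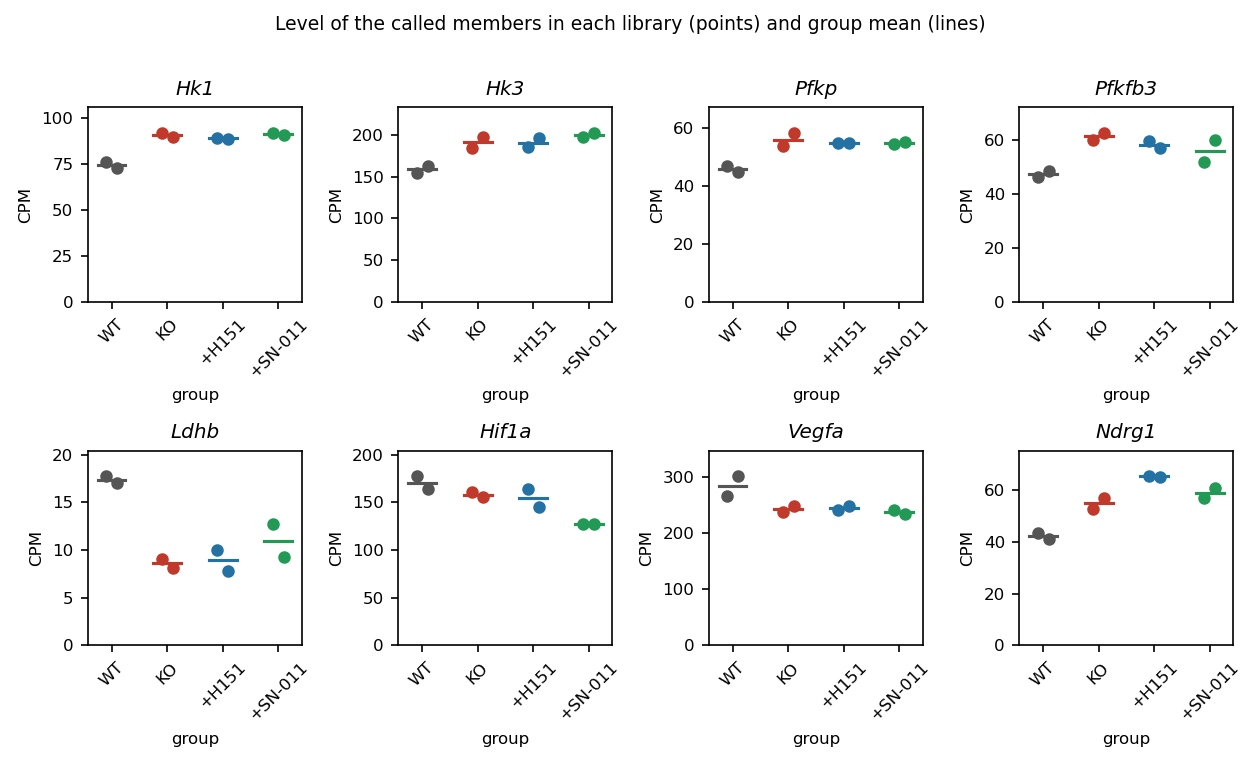
CPM (vertical axes, from 0) of the 8 genes called between Trex1-KO and WT or with SN-011, for each library (points) and the mean of each group of 2 (lines). Ldhb falls from 17.7 and 17.0 CPM in WT to 9.06 and 8.11 CPM in Trex1-KO, and Hif1a is lowest with SN-011, at 127 and 128 CPM.

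The sequences before the start sites of called genes are shown because HIF acts through a short element there. Of the 6 genes with the largest log2 fold changes among those called between Trex1-KO and WT or with an antagonist over vehicle (Ldhb, Ndrg1, Pfkfb3, Hif1a, Hk1 and Pfkp), 5 had entries in the RefSeq promoter table (GRCm38.p6), and Ndrg1 had none. The 250 bases before each annotated start were searched on both strands for ACGTG and GCGTG, whose reverse complements are CACGT and CACGC, and an ACGTG and a CACGT that share letters (as in CACGTG) were counted as 2 matches. Windows with a match that held at most 30 bases of the gene's own exons are printed 5′ to 3′ on the strand of the gene, with the matched letters in capitals.
Ldhb (chr6:142507958-142508207, minus strand): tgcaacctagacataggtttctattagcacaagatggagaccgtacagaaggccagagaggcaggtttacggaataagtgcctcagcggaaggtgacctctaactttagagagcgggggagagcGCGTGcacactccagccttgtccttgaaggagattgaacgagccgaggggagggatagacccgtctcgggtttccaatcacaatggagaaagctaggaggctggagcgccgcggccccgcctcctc
Pfkfb3 (chr2:11502091-11502340, minus strand): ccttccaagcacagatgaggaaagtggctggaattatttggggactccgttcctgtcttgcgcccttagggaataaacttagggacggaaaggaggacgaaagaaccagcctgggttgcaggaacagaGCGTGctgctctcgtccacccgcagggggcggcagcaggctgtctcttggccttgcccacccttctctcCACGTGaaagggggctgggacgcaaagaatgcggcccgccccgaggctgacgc
Pfkp (chr13:6648772-6649021, minus strand): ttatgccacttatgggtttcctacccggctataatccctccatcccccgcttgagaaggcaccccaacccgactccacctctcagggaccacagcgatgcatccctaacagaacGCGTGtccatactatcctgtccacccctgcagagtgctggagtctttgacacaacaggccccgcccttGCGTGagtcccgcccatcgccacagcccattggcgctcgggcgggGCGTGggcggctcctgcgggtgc
Hif1a (chr12:73907617-73907866, plus strand): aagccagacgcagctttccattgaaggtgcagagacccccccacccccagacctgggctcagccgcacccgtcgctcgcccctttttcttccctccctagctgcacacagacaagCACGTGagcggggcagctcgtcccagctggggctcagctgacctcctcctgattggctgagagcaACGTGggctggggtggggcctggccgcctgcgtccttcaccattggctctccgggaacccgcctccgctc
The window of Ldhb held 1 match, starting 126 bases before the start site, and those of Pfkfb3, Hif1a and Pfkp held 3 each. In the Pfkfb3 and Hif1a windows 2 of the 3 matches are the strands of a single CACGTG. A second window of Pfkfb3 held 1 match, and the 2 windows of Hk1 held 0 and 3. At least 1 match was found for 29 of the 32 of the 35 genes with an entry (90.6%), against 60.2% of the 10379 tested genes with an entry, and in 80.4% of their 46 windows against 54.3% of the windows of tested genes. Because known HIF targets were among the genes listed, a share above that of all genes cannot be told apart from the choice of list. A match describes letters and is no evidence of binding.

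Neither STING antagonist returned any of the 7 genes toward WT past the test. With H151, none of the 35 genes was called against vehicle-treated Trex1-KO cells, where 2.23% of all genes were (0.384% higher and 1.84% lower). Before adjustment 6 of 35 had p under 0.05, edgeR's exact test and DESeq2 called 0, and the median log2 fold change was 0.00. No share of all genes was computed for unadjusted p-values, here or below, so such counts cannot be judged against one. The libraries did not overlap for 13 of the 35, against 35.4% of all genes. The 95% interval stayed within 1.5-fold for 29 of the 35. Among the 7, Ldhb had a log2 fold change of 0.05 ± 0.19 (adjusted p = 0.987), Vegfa 0.01 ± 0.07 (0.999), Hk1 -0.03 ± 0.06 (0.964), Hk3 0.00 ± 0.06 (0.999), Pfkp -0.03 ± 0.08 (0.979) and Pfkfb3 -0.08 ± 0.08 (0.913). Ndrg1 had 0.25 ± 0.08 (adjusted p = 0.159), with both H151 libraries above both vehicle libraries, which was farther from WT. Of the role genes, Hif1a had -0.03 ± 0.07, Slc2a1 -0.10 ± 0.13, Hk2 0.11 ± 0.07, Pgk1 -0.05 ± 0.06, Ldha 0.03 ± 0.07, Bnip3 -0.01 ± 0.10 and Egln3 -0.25 ± 0.36, with adjusted p-values of 0.731 and above. The smallest unadjusted p-values were those of Ndrg1 (0.00547), Pkm (0.00764, log2 fold change 0.19 ± 0.06) and Eno1 (0.0109, 0.19 ± 0.06). Pkm passed where genes with as little as 1 count were kept (adjusted p = 0.0288), and Gapdh passed without H151 replicate 2 (log2 fold change 0.41, adjusted p = 0.0203), after which H151 was represented by the library with the highest Gapdh level of the 8, at 112 CPM.

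With SN-011, Hif1a was the only gene of the 35 called, 1 of 35 (2.86%) against 2.33% of all genes (0.11% higher and 2.22% lower). Hif1a fell from 160.5 and 155 CPM with vehicle to 127 and 128 CPM, a log2 fold change of -0.31 ± 0.07 (adjusted p = 0.0321). The 2 pairs did not overlap, and the SN-011 level was 0.806 times that with vehicle. The call rested on each of the 4 libraries compared: the adjusted p was 0.198 without Trex1-KO replicate 1, 0.0707 without Trex1-KO replicate 2, 0.293 without SN-011 replicate 1 and 0.23 without SN-011 replicate 2, with log2 fold changes between -0.34 and -0.29. With total counts alone it was 0.0658. No other gene of the 35 was called alongside it, those that HIF is known to raise included. Slc2a1 had a log2 fold change of -0.19 ± 0.13 (adjusted p = 0.615), Hk2 -0.03 ± 0.07 (0.899), Pfkfb3 -0.14 ± 0.08 (0.539), Pgk1 0.03 ± 0.06 (0.897), Ldha 0.08 ± 0.07 (0.693), Vegfa -0.03 ± 0.07 (0.905), Egln3 0.09 ± 0.35 (0.947) and Bnip3 0.01 ± 0.10 (0.986). P4ha1 came nearest to the threshold after Hif1a, with -0.22 ± 0.06 (adjusted p = 0.0876). Ldhb had 0.37 ± 0.18 (adjusted p = 0.432), with a 95% interval from -0.01 to 0.76 set against the 1.02 by which Trex1-KO lay under WT, and Hk1, Hk3, Pfkp and Ndrg1 had values between -0.04 and 0.10. Counting Hif1a, 2 of the 35 had an unadjusted p under 0.05, and the median was 0.01. The libraries did not overlap for 13 of the 35, against 43.4% of all genes. For 29 of the 34 others the 95% interval stayed within 1.5-fold.

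**Figure D3:**
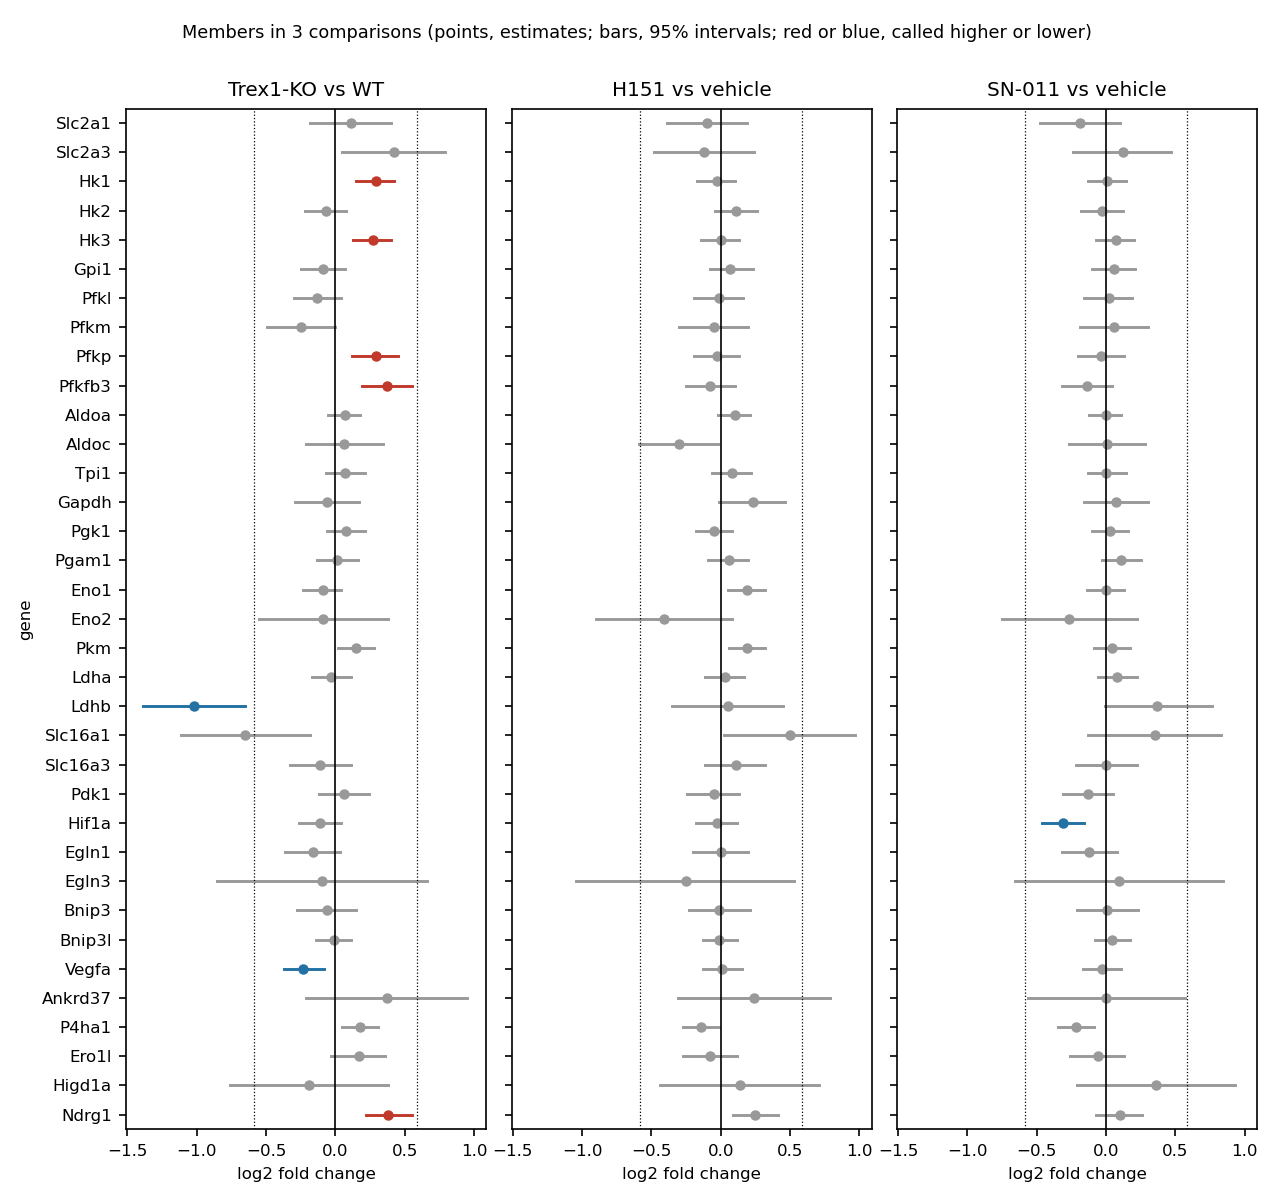
Log2 fold change (horizontal axes; points, edgeR estimates; bars, 95% intervals) of the 35 genes (rows) for Trex1-KO over WT and for H151 and SN-011 over vehicle in Trex1-KO cells, with called genes in red (higher) or blue (lower) and dotted lines at 1.5-fold. The 7 coloured rows of the first panel are grey in the other panels, and Hif1a is the only coloured row with SN-011.

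Set against each other, the antagonists did not differ for any of the 35 genes past the test, where 0.158% of all genes did, all lower with SN-011. Before adjustment 4 of 35 had p under 0.05 in edgeR's quasi-likelihood test, and edgeR's exact test and DESeq2 called 0. The libraries did not overlap for 19 of the 35, against 39.7% of all genes. Hif1a had the smallest of these (log2 fold change of SN-011 over H151 -0.28 ± 0.07, edgeR adjusted p = 0.249, 95% interval -0.43 to -0.13), with both SN-011 libraries below both H151 libraries. It passed without H151 replicate 2 (log2 fold change -0.37, adjusted p = 0.0207) and where genes with as little as 1 count were kept (-0.28, 0.0151). Eno1 had -0.19 ± 0.06 (adjusted p = 0.445), Pkm -0.15 ± 0.06 (0.523) and Aldoc 0.31 ± 0.13 (0.531). For 27 of the 35 the 95% interval of the difference stayed within 1.5-fold.

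Antagonist-treated Trex1-KO cells differed from WT in 8 of the 35 genes with H151 and in 7 with SN-011. These comparisons share the WT libraries with that of Trex1-KO and WT, and all 6 Trex1-KO libraries held the raised granule and lowered stromal markers given above. With H151, 8 of 35 were called against WT (22.9%, 6 higher and 2 lower, against 11.8% of all genes, 6.79% higher and 5.04% lower): Hk1 and Hk3 (log2 fold change 0.26 ± 0.06 each), Pfkp (0.26 ± 0.08), Pfkfb3 (0.29 ± 0.08), Pkm (0.34 ± 0.06, adjusted p = 0.00198), Ndrg1 (0.63 ± 0.08, adjusted p = 9.69e-05), Ldhb (-0.97 ± 0.17, adjusted p = 0.00199) and Vegfa (-0.22 ± 0.07). With SN-011, 7 of 35 were called (20.0%, 4 higher and 3 lower, against 11.7% of all genes, 6.18% higher and 5.57% lower): Hk1 (0.29 ± 0.06), Hk3 (0.33 ± 0.06), Pfkp (0.25 ± 0.08), Ndrg1 (0.48 ± 0.08, adjusted p = 0.000939), Ldhb (-0.64 ± 0.17, adjusted p = 0.022), Vegfa (-0.26 ± 0.07) and Hif1a (-0.43 ± 0.07, adjusted p = 0.00104). Pfkfb3, called between Trex1-KO and WT, was not called with SN-011 over WT, at a mean of 55.8 CPM against 47.5 CPM in WT. With total counts alone the split was 2 higher and 2 lower with H151 and 3 higher and 4 lower with SN-011. The libraries of WT and of each treated group did not overlap for 20 of the 35 with H151 and 25 with SN-011, against 52.1% and 54.3% of all genes. The calls of Ndrg1, Ldhb and Pkm with H151 and of Ndrg1 and Hif1a with SN-011 held under all 16 alternatives. With SN-011, Ldhb missed the threshold without WT replicate 1 (adjusted p = 0.124), WT replicate 2 (0.0766) or SN-011 replicate 2 (log2 fold change -0.46, adjusted p = 0.194). The other calls were less firm. Over WT, Pfkp was lost under 12 of 16 alternatives with either antagonist, DESeq2, total counts and the filter at 1 count among them, and with H151 Vegfa was lost under 9, Pfkfb3 under 7, Hk1 under 6 and Hk3 under 3. With SN-011, Hk1 and Vegfa were lost under 3 each and Hk3 under 2. Slc2a3 missed the threshold in SN-011-treated cells over WT (log2 fold change 0.54 ± 0.17, adjusted p = 0.0576) and passed it under 8 of 16. With H151, 4 of the 35 were called without any given WT or H151 library, and the highest adjusted p on leaving out a library was 0.159 for Hk1 (WT replicate 2), 0.167 for Hk3 (WT replicate 1), 0.266 for Pfkp (WT replicate 2), 0.257 for Pfkfb3 (WT replicate 1) and 0.348 for Vegfa (WT replicate 2). With SN-011, 3 were called without WT replicate 2, 4 without SN-011 replicate 1 and 2 without SN-011 replicate 2, and the highest adjusted p was 0.0853 for Hk1 and 0.289 for Pfkp (WT replicate 2), 0.0589 for Hk3 (WT replicate 1) and 0.217 for Vegfa (WT replicate 2).

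Within families of isozymes, the mix is given as each gene's share of the family's summed FPKM, as mean ± SD of 2 libraries, with no test. Ldhb made up 10.3% ± 0.15 of lactate dehydrogenase RNA in WT, 5.5% ± 0.73 in Trex1-KO, 5.60% ± 1.2 with H151 and 6.56% ± 1.4 with SN-011. The share in each of the 6 Trex1-KO libraries, 4.72% to 7.58%, lay below both WT values of 10.2% and 10.4%. Pfkp took 14.8% ± 0.61 of phosphofructokinase in WT and 19.4% ± 0.57, 19.3% ± 1.2 and 18.6% ± 0.44 in the other groups, again without overlap. Without division by exon length the Pfkp share was 30.2% ± 0.80 in WT and 37.0% ± 0.69, 36.9% ± 1.9 and 36% ± 0.71 in the others, and that of Ldhb 5.16% ± 0.080 in WT and 2.69% ± 0.37, 2.74% ± 0.63 and 3.23% ± 0.74, with WT still apart from the other 6 libraries. Hk3 was the main hexokinase in all libraries (62.0% to 68.0%), and Hk2 took 23.8% ± 1.6 in WT and 19.7% ± 0.13 in Trex1-KO. Slc2a3 took 17.7% ± 0.98 of the 2 glucose transporters in WT, 21.1% ± 1.2 in Trex1-KO, 21% ± 1.3 with H151 and 25.0% ± 1.7 with SN-011. Aldoa and Eno1 made up at least 97.6% and 98.3% of their families in every library.

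**Figure D4:**
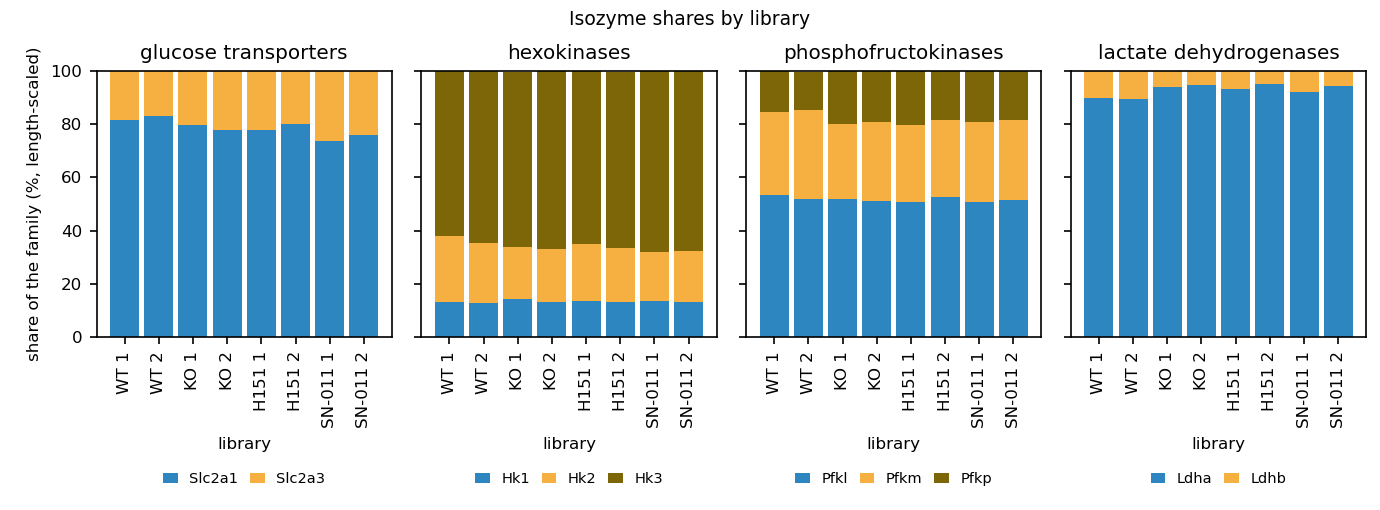
Share of each isozyme in the summed FPKM of its family (vertical axis, percent; stacked bars) in each of the 8 libraries, for glucose transporters, hexokinases, phosphofructokinases and lactate dehydrogenases. The Ldhb share is 10.2% and 10.4% in the WT libraries and 4.72% to 7.58% in the other 6.

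The pathway was also read through 83 further genes, of which 72 passed the filter on low counts. Between Trex1-KO and WT, 3 were called higher and 9 lower (16.7% of the 72), about the share of all genes tested. Other HIF target genes held most of them, with 1 of 27 higher (Tfrc) and 8 lower (among them Lox, Adm, Ddit4, Edn1, P4ha2, Angptl4 and Hmox1) and a median log2 fold change of -0.20, which is 33.3% called against 9.27% of all genes higher and 7.11% lower. Called elsewhere were 1 of 13 genes for the fate of pyruvate (Pdk4, lower), 1 of 14 other glycolytic isozymes and regulators (Slc2a6, higher), 1 of 11 of the HIF machinery (Cited2, higher) and 0 of 7 of the pentose phosphate pathway, where 1 had an unadjusted p under 0.05. Of the 27 other HIF target genes, 4 were called over WT with each antagonist, all lower. That is 14.8%, against 11.8% of all genes with H151 and 11.7% with SN-011. Their median log2 fold changes over WT were -0.03 with H151 and -0.11 with SN-011. Over vehicle the medians were 0.17 and 0.12, in comparisons that share the vehicle libraries with Trex1-KO over WT. Lox, the collagen cross-linking enzyme, read 329.5 and 252 CPM in WT against 117 and 92.7 CPM in Trex1-KO, 148 and 118 CPM with H151, and 129 and 103 CPM with SN-011. All 6 values lay well below WT (log2 fold change of Trex1-KO over WT -1.47 ± 0.15, adjusted p = 8.13e-06), and the stromal markers fell alongside. Adm, which encodes the vasodilator adrenomedullin, read 6.18 and 4.74 CPM in WT against 2.26 and 2.51 CPM in Trex1-KO (-1.19 ± 0.26, adjusted p = 0.00571). Ddit4, an inhibitor of mTOR, read 11.3 and 9.15 CPM in WT against 3.85 and 5.61 CPM in Trex1-KO (-1.10 ± 0.28, adjusted p = 0.0158). Adm missed the threshold without WT replicate 1 (adjusted p = 0.0626), and Ddit4 without WT replicate 1 (0.118) or Trex1-KO replicate 1 (0.103).

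The transporter Slc2a6 (GLUT6) had the largest rise between Trex1-KO and WT among the 72 genes. It read 26.5 and 14.9 CPM in WT cells, 64.3 and 48.1 CPM in Trex1-KO, 29.2 and 35 CPM with H151, and 25.3 and 27.8 CPM with SN-011. Trex1-KO stood above all other libraries, and the treated libraries, at 25.3 to 35 CPM, lay near the higher WT library. The log2 fold change of Trex1-KO over WT was 1.44 ± 0.20 (adjusted p = 0.000183), that of SN-011 over vehicle -1.09 ± 0.20 (0.00732), and that of H151 over vehicle -0.80 ± 0.19, just above the threshold (0.05 when rounded). The comparisons with WT and with the antagonists share the 2 Trex1-KO vehicle libraries, so their directions are not independent. The difference between the antagonists was -0.28 ± 0.20 (adjusted p = 0.715), and treated cells were not called against WT (0.0651 with H151 and 0.359 with SN-011). The call with SN-011 was lost without Trex1-KO replicate 1 (adjusted p = 0.0575), SN-011 replicate 1 (0.177) or SN-011 replicate 2 (0.0656).

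With H151, 1 of the 72 genes was called higher and 2 lower (4.17%), and with SN-011 2 were lower (2.78%), against 2.23% of all genes with H151 (0.384% higher and 1.84% lower) and 2.33% with SN-011 (2.22% lower). Rab20, a HIF-responsive small GTPase, read 32.5 and 29.8 CPM with vehicle, 23.2 and 23.0 CPM with H151, and 22.6 and 23.7 CPM with SN-011. Both pairs of treated libraries lay below vehicle, with a log2 fold change of -0.43 ± 0.10 each (adjusted p = 0.0394 with H151 and 0.0354 with SN-011), but the call with H151 was lost on leaving out any 1 of the 8 libraries (adjusted p 0.0554 to 0.259), and that with SN-011 on leaving out any WT, vehicle or SN-011 library (0.0553 to 0.36). Both calls were also lost with total counts alone (0.0577 and 0.0578) and in DESeq2 (0.0875 and 0.0838), and that with H151 with only the 2 groups in the fit (0.119). With H151, Cited2, which competes with HIF for its coactivator, fell from 187 and 183 CPM to 147 and 155 CPM (-0.30 ± 0.06, adjusted p = 0.018). Hmox1, the haem-degrading enzyme, rose from 398 and 385 CPM to 487 and 456 CPM (0.27 ± 0.06, adjusted p = 0.0289). Between Trex1-KO and WT, a comparison that shares the vehicle libraries, Cited2 was called higher (0.21 ± 0.06, adjusted p = 0.0285) and Hmox1 lower (-0.27 ± 0.06, adjusted p = 0.00636). With H151, Cited2 missed the threshold without Trex1-KO replicate 1 (adjusted p = 0.127), Trex1-KO replicate 2 (0.0805) or H151 replicate 1 (0.122), and with only the 2 groups in the fit (0.0812). Hmox1 missed it without Trex1-KO replicate 1 (0.0854), Trex1-KO replicate 2 (0.199), H151 replicate 1 (0.16), SN-011 replicate 1 (0.0544) or SN-011 replicate 2 (0.0536), in edgeR's exact test (0.0684) and with only the 2 groups in the fit (0.104).

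**Figure D5:**
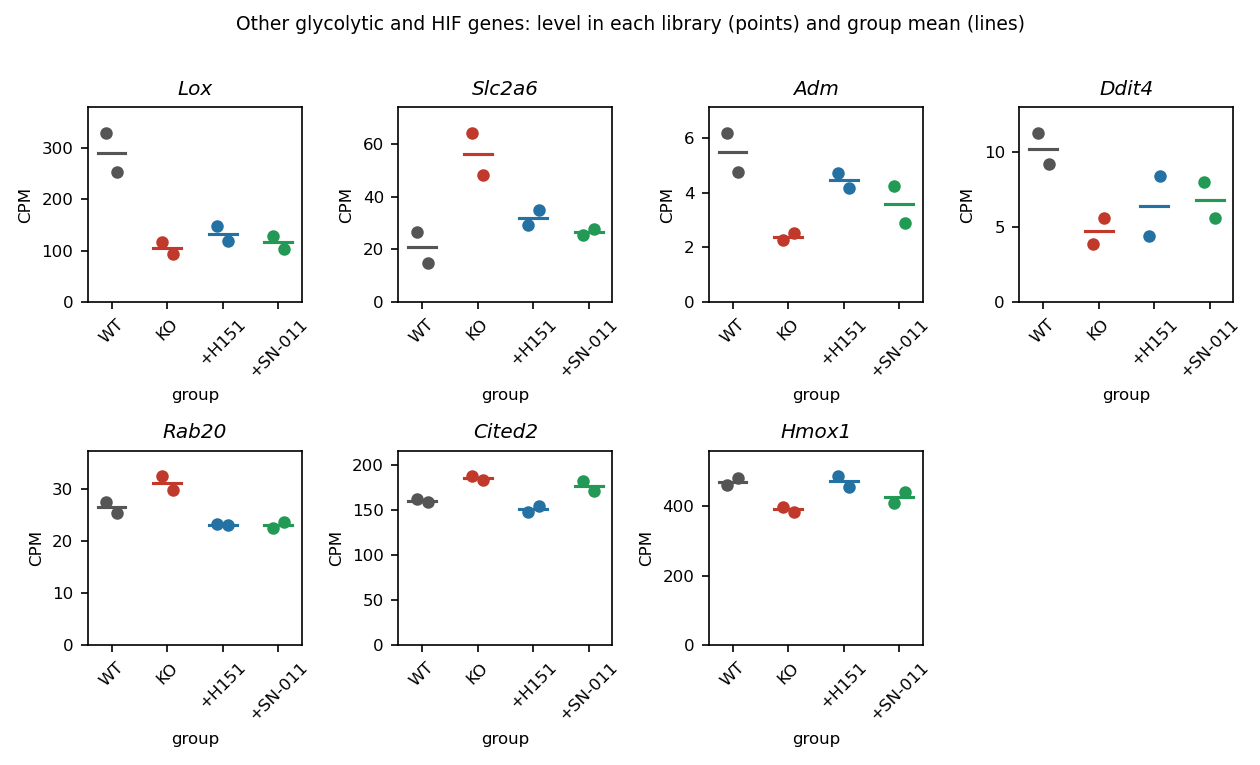
CPM (vertical axes, from 0) of the 7 further pathway genes named, for each library (points) and the mean of each group of 2 (lines). Slc2a6 is highest in Trex1-KO (64.3 and 48.1 CPM) and between 25.3 and 35 CPM with either antagonist, and Lox is below WT in all 6 Trex1-KO libraries.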

How the data were processed

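Paired-end reads were trimmed (Trimmomatic) and aligned (hisat2, default settings) by the authors. The deposited values are raw counts of uniquely mapped read pairs per Ensembl gene, without normalization. The methods name featureCounts as the counter, the submitters' processing notes name HTSeq and genome build mm10, and versions are not given in the sources used here. Reads that fit exons of 2 genes on either strand were not counted: counts above 0 were found for 1 of 483 genes lying wholly inside exons of an opposite-strand gene and for 3 of 617 inside those of a same-strand gene. Symbols, positions and exon lengths came from GENCODE M21 (GRCm38), with a symbol for 54495 of the identifiers and none for 37.

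Groups came from the titles. All 8 libraries entered 1 quasi-likelihood fit in edgeR 4.0.16 (R 4.3.3) with TMM factors, after filterByExpr (minimum count 10, minimum total 15), and each contrast was tested two-sided with Benjamini-Hochberg adjustment over 14591 genes at 0.05. The common biological coefficient of variation was 0.0656. Standard errors were derived from each log2 fold change and the square root of its F statistic, and are approximate. Counting error alone limits a level of 3 counts or fewer. With 2 libraries a group, an exact permutation test of a single value cannot go below p = 0.333, so none was used. The fit was tested on simulated counts.

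The members, the other pathway genes and the marker lists were chosen with earlier results of these data known. All 35 members were to be named, with library values for 9 genes that stand for a role and for up to 6 called members with the largest log2 fold change per contrast, and of the other pathway genes up to 4 called per contrast whose average log2 CPM reached 2. Alternatives were total counts, RLE factors, DESeq2 1.42.0, edgeR's exact test, 2 other filters on low counts (1 count in all, or 50 counts in 2 libraries), only the groups compared, the replicate number as a block, and each library left out. Where leaving out a library leaves 1 in a group, that library is assumed to vary like the others. Some genes of the lists are not reported here by name.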

Additional observations from a re-analysis of the deposited data

How the results depend on the processing

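The counts of called genes and medians of the 6 comparisons were recomputed under 16 alternatives each, and the isozyme shares without exon length. Of these 201 values 167 stayed near the reported value and 34 moved. None of the called genes among the 35 changed direction, nor did the 7 further pathway genes given with library values, where tested under the alternatives (Cited2 and Hmox1 with H151 over vehicle only). Scaling by total counts alone placed the median of all genes between Trex1-KO and WT at -0.09 (log2), and the median of the 35 genes from -0.01 to -0.10. It gave medians of 0.04 with SN-011 over vehicle (0.01 with TMM) and -0.05 for H151-treated and for SN-011-treated cells over WT (0.01 each). It also left 0 of the 35 called with SN-011 over vehicle, where TMM gave 1, and 4 in H151-treated cells over WT, where TMM and DESeq2 gave 8 and 4. Keeping genes with as little as 1 count gave 1 called with H151 over vehicle and 1 between SN-011 and H151, against 0 each.

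Leaving out 1 library in turn gave 3 to 8 genes called between Trex1-KO and WT (7 with all libraries, 3 without WT replicate 2 and 4 without Trex1-KO replicate 2), 0 to 1 with H151 over vehicle, 0 to 1 with SN-011 over vehicle and 0 to 1 between the antagonists. Over WT it gave 4 to 7 with H151 and 2 to 8 with SN-011. Without a library of either group, fewer of all genes were called between Trex1-KO and WT as well. The lower counts in that comparison were therefore not particular to the 35. The medians ran from -0.03 to 0.03 for Trex1-KO over WT, from -0.02 to 0.04 for H151 and from -0.01 to 0.03 for SN-011 over vehicle, from -0.03 to -0.01 for SN-011 over H151, and from -0.02 to 0.05 and from -0.01 to 0.08 for H151-treated and SN-011-treated cells over WT. Shares computed from CPM without exon length moved, in WT, from 82.3% to 69.2% for Slc2a1, from 12.8% to 22.5% for Hk1, from 97.7% to 97.5% for Aldoa, from 89.7% to 94.8% for Ldha, from 93.4% to 95% for Egln1, from 26.5% to 17.5% for Bnip3 and from 14.8% to 30.2% for Pfkp, since the genes differ in length.

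With the replicate number as a block, 8, 0, 1, 0, 9 and 8 of the 35 were called in the 6 comparisons, in the order Trex1-KO over WT, H151 and SN-011 over vehicle, SN-011 over H151, and H151-treated and SN-011-treated cells over WT. Of all genes, 17.9% were called between Trex1-KO and WT in the block fit, and Slc16a1 passed there (adjusted p = 0.0485). Same-numbered libraries of different groups deviated together with r of 0.19 for Trex1-KO and H151 and of -0.02 to 0.06 for the other pairs of groups. These values do not show whether the numbers pair the libraries, and the main fit did not pair them. The titles number vehicle and treated libraries alike, without saying whether equal numbers mean the same cells. The same alternatives for the further pathway genes were chosen after seeing the data. For other moved values the cause was not tested. At this depth the least abundant of the 35, Egln3, Eno2 and Ankrd37, have intervals too wide to show a 1.5-fold difference in at least 1 of the comparisons with vehicle or WT.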
